A study of Mus musculus with 10 samples.

Results

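Transcripts of 10 nuclear hormone receptors were followed in CNS-associated macrophages, the macrophages of the brain's borders such as the meninges and perivascular spaces, sorted from individual C57BL/6N mice of 6 to 8 weeks. The members were chosen by name: Esr1, the gene of oestrogen receptor alpha, and 9 other receptors to set it against (Esrra, Nr3c1, Nr3c2, Rxra, Rara, Vdr, Ppard, Pparg and Nr1h2). All 10 were found by symbol among the 53546 genes of the count table. Of these 10, 9 had counts and passed the filter on low counts, as did 14023 genes in all, and Vdr had none. The mice carried Mrc1-CreERT2 on both chromosomes (homozygous, 4 mice), carried Mrc1-CreERT2/wt (heterozygous, 3 mice) or were wild type (3 mice). All groups shared the strain background and the sequencing batch, and none was treated. The name of the allele places the fusion at Mrc1, which encodes the mannose receptor CD206, so that it is made where this gene is active. The gate used for the sort is not described in the labels. Libraries held 22986972 to 36575446 counts, and levels are given as counts per 1000000 (CPM) with trimmed-mean scaling.

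Nuclear hormone receptors are transcription factors that bind small lipophilic ligands in one domain and DNA in another. Steroid receptors such as those for oestradiol, glucocorticoids and mineralocorticoids are held by heat-shock chaperones until they bind hormone, whereas the receptors for retinoic acid, vitamin D, fatty acids and oxysterols pair with a retinoid X receptor on DNA. In macrophages this family is known for restraint of inflammatory genes and for control of lipid handling. CreERT2 is a Cre recombinase fused to an altered ligand-binding domain of the oestrogen receptor, which makes it respond to tamoxifen. Its messenger may therefore resemble a stretch of Esr1 in these mice, to a degree not computed here. The other receptors have no counterpart in the allele. A table of counts per gene does not show which part of a gene its reads cover.

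The coding sequence of Esr1 in GENCODE vM21 has 1797 bases in 8 coding exons, which is 13.15% of all its annotated exon bases. Its last coding exon, on GRCm38 at chr10:5001189-5001420 on the plus strand, encodes the end of the ligand-binding domain and the receptor's tail. It is shown because a fusion messenger could resemble Esr1 here. It is printed 5′ to 3′ with no part in capitals.
Esr1 last coding exon: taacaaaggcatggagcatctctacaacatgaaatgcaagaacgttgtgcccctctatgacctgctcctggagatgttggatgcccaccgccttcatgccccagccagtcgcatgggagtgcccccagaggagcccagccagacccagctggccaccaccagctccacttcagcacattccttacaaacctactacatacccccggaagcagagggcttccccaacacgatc

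The other receptors share short stretches with Esr1. No sequence of the CreERT2 cassette was used here, so its identity with mouse Esr1 was not computed. The longest exact run that the coding sequences of Esr1 and another member have in common was 14 bases, for both Esrra and Nr1h2, and it was 10 to 13 bases for the other 7 members. Both runs of 14 lie in the DNA-binding domain, the most conserved part of the family. This is not the ligand-binding domain that CreERT2 carries. The runs are shown in capitals within windows of 60 coding bases, in which 37 bases of Esr1 and Esrra and 39 bases of Esr1 and Nr1h2 are identical at the same place. The windows come from GENCODE vM21 on GRCm38 and are counted from the first coding base.
Esr1 (coding bases 563 to 622, chromosome 10): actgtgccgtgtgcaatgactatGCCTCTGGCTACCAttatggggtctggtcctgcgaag
Esrra (coding bases 233 to 292, chromosome 19): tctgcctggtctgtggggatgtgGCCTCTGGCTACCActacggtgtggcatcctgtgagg
Esr1 (coding bases 710 to 769, chromosome 10): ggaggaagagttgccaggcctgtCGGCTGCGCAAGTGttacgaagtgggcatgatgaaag
Nr1h2 (window ending at coding base 442, chromosome 7): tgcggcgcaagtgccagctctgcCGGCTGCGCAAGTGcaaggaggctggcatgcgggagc

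These macrophages held much more messenger for the glucocorticoid and oxysterol receptors than for the oestrogen receptor. On the scale of CPM per kilobase of annotated exon, over all 10 libraries, Nr3c1, the glucocorticoid receptor, led with a level of 41.4 ± 7.71 (SD, n = 10). Nr1h2, the oxysterol receptor LXR beta, followed with a level of 20.0 ± 5.03, and Rxra, the retinoid X receptor that many of the others pair with, had 14.96 ± 5.51 (SD, n = 10 each). Nr3c1 stood clear of its neighbour in the order, being above Nr1h2 in 10 of 10 libraries with no overlap of the ranges, and among the 9 members with counts it was the only one to do so.

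A middle group of 5 receptors had overlapping levels per kilobase over the pooled genotypes. These were Rara, a retinoic acid receptor, at 5.62 ± 2.57, Esrra, an orphan receptor related to Esr1 and known for control of mitochondrial genes, at 3.33 ± 0.747, and Pparg, a fatty acid receptor of macrophages and fat cells, at 3.09 ± 2.91 CPM per kilobase. Esr1 itself stood at 2.58 ± 0.784 and Nr3c2, the mineralocorticoid receptor, at 1.99 ± 1.497 CPM per kilobase (SD, n = 10 each). Their ranges overlapped from each to the next, and Pparg was above Esr1 in 5 of 10 libraries. That order differed by genotype: Pparg averaged 2.80 ± 1.55 CPM per kilobase in homozygous (SD, n = 4), 0.438 ± 0.604 in heterozygous and 6.12 ± 3.11 in wild-type libraries (SD, n = 3 each), beside 3.24 ± 0.451, 2.40 ± 0.860 and 1.88 ± 0.295 CPM per kilobase of Esr1 in the same genotypes. On this scale Pparg was thus above Esr1 in every wild-type and below it in every heterozygous library. Ppard, a second fatty acid receptor, was low at 0.307 ± 0.140 CPM per kilobase (SD, n = 10), below Nr3c2 in 9 of 10 libraries. With the length of the transcript that has the longest coding sequence in place of all exons, the pooled mean of Esr1 stood above that of Pparg. The order of the pooled means was otherwise as given. For Nr3c1 and Nr3c2 almost all bases of that transcript are coding (2379 of 2382 and 2952 of 2955), against 1797 of 6339 for Esr1, so these lengths are not alike. The comparison of Pparg and Esr1 within each library was not repeated with these lengths.

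**Figure D1:**
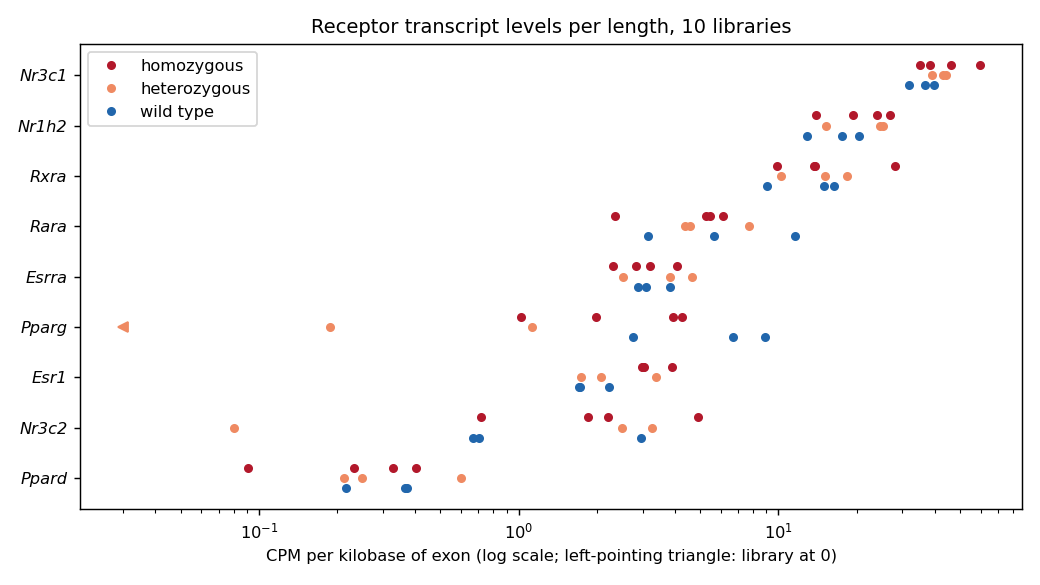
Levels of the 9 receptors with counts, in CPM per kilobase of annotated exon on a log axis, each point a library (4 homozygous, 3 heterozygous, 3 wild type, from top to bottom within a gene), with a left-pointing triangle for a library at 0. Nr3c1 lies apart at the top, with a mean of 41.4, and Esr1, with a mean of 2.58, lies among Rara, Esrra, Pparg and Nr3c2.

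Vdr, the vitamin D receptor, had 0 counts in all 10 libraries. A count of 0 allows up to 3 counts per library, or 0.0817 to 0.130 CPM, a limit that covers counting error only. In GENCODE vM21 no exon base of Vdr is shared with another gene. It was the only member without a count.

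Mrc1, the gene that carries the allele, separated the genotypes. It had 441, 455, 542 and 519 CPM in homozygous libraries, 1985, 2188 and 2286 CPM in heterozygous libraries and 3748, 3065 and 3631 CPM in wild-type libraries. The genotypes did not overlap, so the counts went with the labels in every library. Mrc1 passed edgeR's quasi-likelihood test in homozygous against wild-type and against heterozygous libraries, but not in heterozygous against wild-type libraries.

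Esr1 counts were higher in every homozygous than in every wild-type library, but the difference did not pass the test over all genes. Esr1 had 40.8, 41.6, 41.0 and 53.4 CPM in homozygous libraries, 23.8, 28.5 and 46.1 CPM in heterozygous libraries and 30.4, 23.3 and 23.5 CPM in wild-type libraries. The raw counts behind them ran between 1122 and 1772 for homozygous mice, between 758 and 1067 for heterozygous mice and between 755 and 893 for wild-type mice. Homozygous and wild-type libraries did not overlap, whereas heterozygous replicate 4 lay within the homozygous range and heterozygous replicates 1 and 2 within the wild-type range. Among all tested genes, 4.40% were likewise higher in homozygous than in wild-type libraries without overlap. Esr1 was the only 1 of the 9 tested members without overlap in that comparison.

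The fitted log2 fold change of Esr1 was 0.78 (SE 0.28) in homozygous against wild-type libraries, and edgeR's quasi-likelihood test gave a p of 0.0187, which became 0.606 after adjustment for 14023 genes. Its p ranked 432 among all genes, and the largest p that passed was 3.15e-05. Of 4182 tested genes within 2-fold of the mean CPM of Esr1, 5.74% had a log2 fold change at least as high. Esr1 averaged 18.5 CPM more in homozygous than in wild-type libraries, while Mrc1 fell by 2992 CPM, so the Esr1 difference amounted to 0.617% of the Mrc1 difference. These CPM are not divided by gene length, and the fall of Mrc1 does not measure the level of the CreERT2 messenger. The part that reads of the CreERT2 messenger have in the Esr1 counts was not tested.

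Heterozygous libraries gave no firm place to Esr1 between the other genotypes. Its log2 fold change was 0.35 (SE 0.29) in heterozygous against wild-type libraries and 0.43 (SE 0.28) in homozygous against heterozygous libraries, and neither passed (adjusted p = 1 each by edgeR's quasi-likelihood test). Both values hung on single heterozygous mice. Without heterozygous replicate 4 they became 0.012 and 0.77, and without heterozygous replicate 1 they became 0.52 and 0.26, none of them past the threshold. With the number of CreERT2 alleles as a numeric term over all 10 libraries, Esr1 had a log2 slope of 0.39 per allele (SE 0.13), for which edgeR's quasi-likelihood test gave a p of 0.0127, or 0.583 once adjusted. On this slope 0 of 9 members were called, against 0.0428% of all genes, 1 of 9 had an unadjusted p under 0.05, against 5.78%, and 5 of 9 were fitted above 0, against 50.9%.

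**Figure D2:**
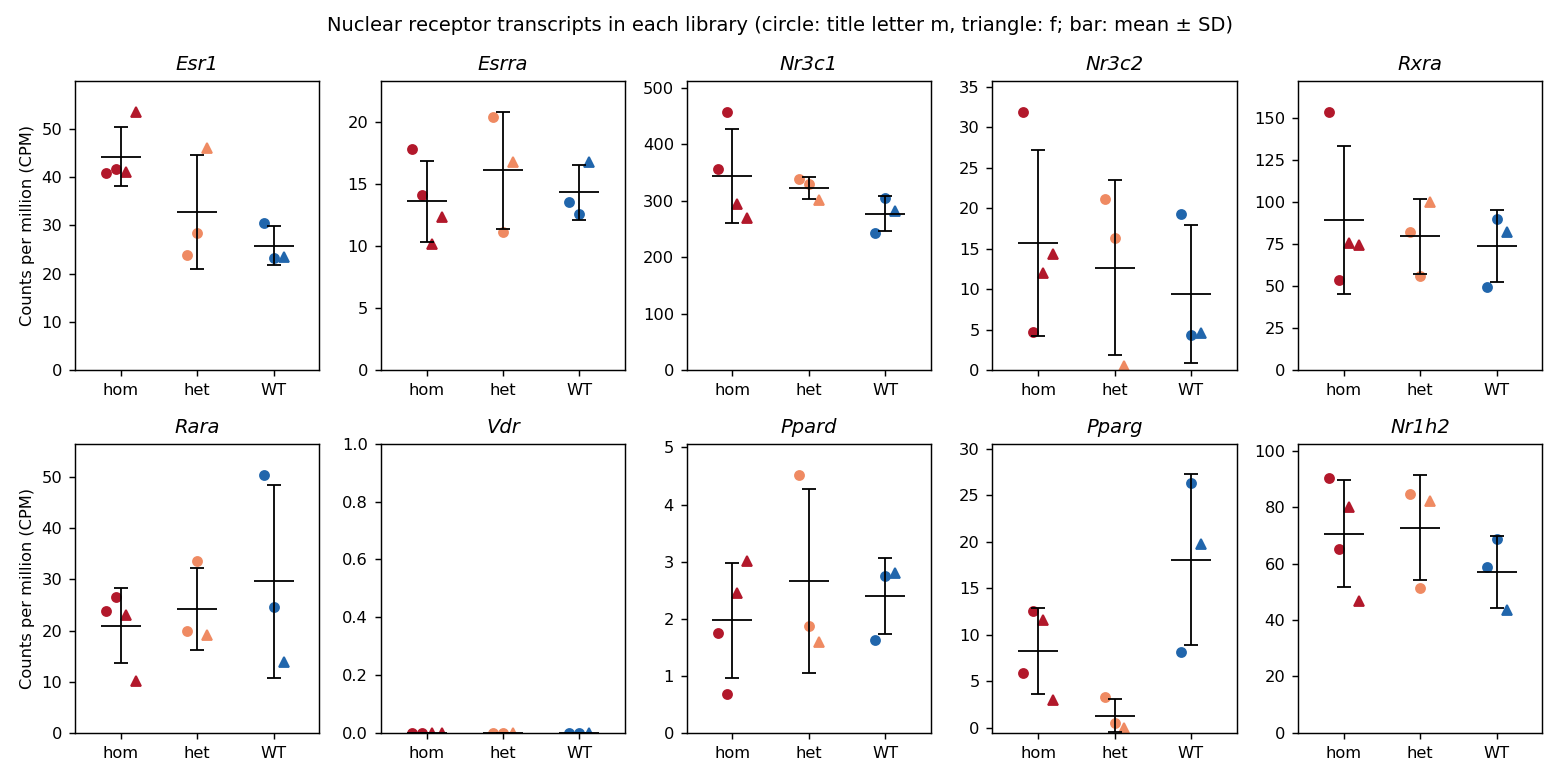
CPM of the 10 receptors in each library (y axis, a scale for each gene), by genotype from left to right (hom, homozygous, n = 4; het, heterozygous, n = 3; WT, wild type, n = 3), with circles for title letter m, triangles for f, and bars for mean ± SD. Esr1 sits between 40.8 and 53.4 CPM in homozygous and between 23.3 and 30.4 CPM in wild-type libraries, and for the other receptors with counts those genotypes overlap.

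Set against the other receptors, the separation of Esr1 depended on how they were combined. Esr1 counts came to 5.98, 6.56, 8.05 and 12.3% of the summed counts of the other 9 members in homozygous libraries, to 4.14, 5.69 and 8.83% in heterozygous libraries and to 6.83, 4.36 and 5.06% in wild-type libraries. Homozygous replicates 1 and 2 lay below wild-type replicate 1 on this ratio, so the genotypes overlapped. Over the geometric mean of the 7 other members with counts in every library, which weights each receptor alike, the ratio of Esr1 was 1.069, 1.97, 1.48 and 2.19 for homozygous mice, 0.646, 1.05 and 2.53 for heterozygous mice and 1.067, 0.914 and 1.04 for wild-type mice. On this ratio every homozygous library was above every wild-type library, by a small margin for homozygous replicate 1 over wild-type replicate 1. Equal weight gives uneven members with few counts, such as Nr3c2 and Ppard, as much part in the ratio as Nr3c1. Heterozygous replicate 4, with the highest ratio, had 12 counts of Nr3c2 and 37 of Ppard. Against Nr1h2, Rxra and Nr3c1, each taken alone, homozygous and wild-type libraries overlapped. Ratios to the other members taken alone were not computed. Esr1 over Nr1h2 was 0.450 to 1.14 for homozygous and 0.339 to 0.542 for wild-type mice, Esr1 over Rxra was 0.265 to 0.773 for homozygous and 0.260 to 0.618 for wild-type mice, and Esr1 was 9.10 to 19.8% of Nr3c1 for homozygous and 7.63 to 12.5% for wild-type mice. The summed level of the other 9 members was itself 565 ± 114 CPM across homozygous mice (SD, n = 4), 532 ± 38.4 CPM across heterozygous mice (SD, n = 3) and 482 ± 47.1 CPM across wild-type mice (SD, n = 3), most of it from Nr3c1. With libraries scaled so that this geometric mean was level, the log2 fold change of Esr1 between homozygous and wild-type libraries was 0.74 (SE 0.46, adjusted p = 1 by edgeR's quasi-likelihood test). With the summed counts of the other 9 as the scale it was 0.60 (SE 0.36, adjusted p = 0.809 by the same test).

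**Figure D3:**
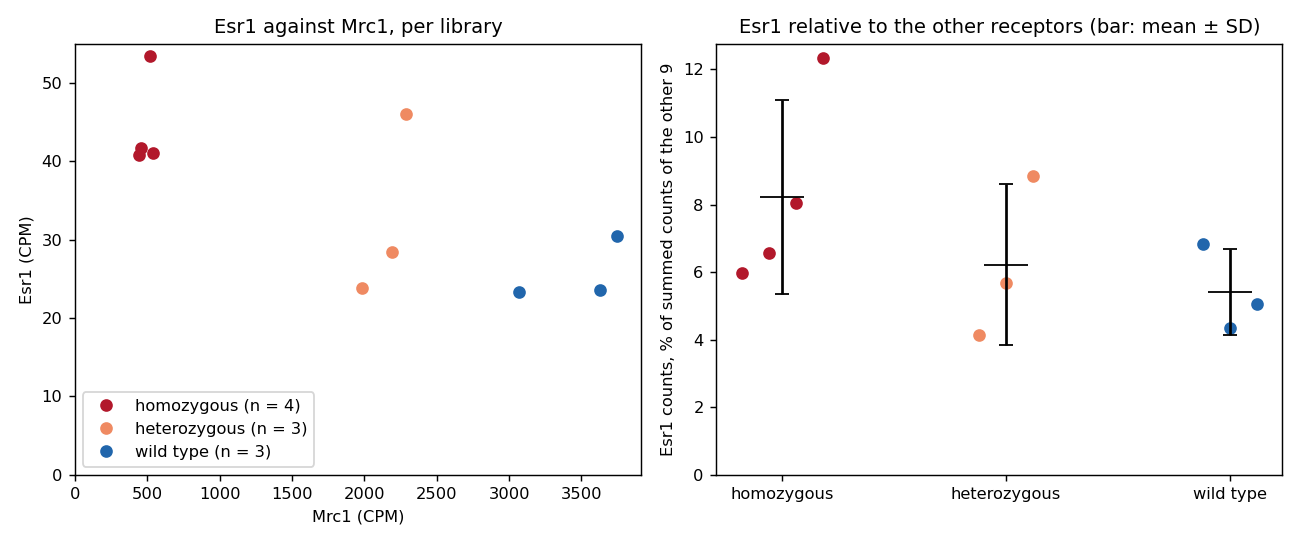
Left, Esr1 against Mrc1 in CPM, each point a library (4 homozygous, 3 heterozygous, 3 wild type). Right, Esr1 counts as a percent of the summed counts of the other 9 receptors by genotype, with bars for mean ± SD. Mrc1 separates all genotypes and Esr1 only homozygous from wild-type libraries, and on the right the homozygous libraries, from 5.98 to 12.3%, overlap the wild-type libraries, from 4.36 to 6.83%.

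Marker levels differed between the genotypes as well. Summed over 11 border macrophage markers other than Mrc1 (Cd163, Lyve1, Pf4, F13a1, Ms4a7, Cbr2, Stab1, Dab2, Clec12a, Csf1r and Maf), all of them tested, levels were 31178 to 31725 CPM in homozygous, 25132 to 28195 CPM in heterozygous and 23290.5 to 26744 CPM in wild-type libraries. With Mrc1 counted in, 10 of the 12 markers were fitted above 0 between homozygous and wild-type libraries, against 51.1% of all genes. Of the 12, 3 (Mrc1, Lyve1 and Clec12a) were called, against 0.0642% of all genes. The list was written with earlier results of these data known, so this share is not independent of them. Of the called markers Mrc1 was lower in homozygous libraries, and the direction of the others is not given here. Homozygous libraries thus lay above all others on the summed markers, which are present at high levels, as the label of the cells calls for. With these markers as the scale the log2 fold change of Esr1 between homozygous and wild-type libraries was 0.44 (SE 0.28, adjusted p = 0.543 by edgeR's quasi-likelihood test), smaller than the 0.78 above. The markers themselves summed higher in homozygous libraries, so this scale lowers the fitted value of any gene in that comparison. The drop is therefore not particular to Esr1. In bulk samples, fewer cells of a type and less RNA per cell cannot be told apart.

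Microglia, monocyte and B cell markers were lower in every homozygous than in every wild-type library. The 8 microglia markers, all tested and 0 called, summed to 2071 to 3108 CPM in homozygous, 4144 to 6180 CPM in heterozygous and 4078 to 9216 CPM in wild-type libraries. The 6 monocyte markers (4 tested, 1 called, Ccr2) summed to 5.72 to 17.5 CPM in homozygous, 49.1 to 68.0 CPM in heterozygous and 75.7 to 198 CPM in wild-type libraries, with Chil3 at 0 in all libraries. The 6 B cell markers (4 tested, 0 called) summed to 251 to 409.7 CPM in homozygous, 329 to 446 CPM in heterozygous and 429 to 711 CPM in wild-type libraries. The 6 fibroblast markers (2 tested, 0 called) overlapped, at 1.48 to 6.10 CPM in homozygous, 0.0308 to 2.81 CPM in heterozygous and 0 to 24.1 CPM in wild-type libraries. The 6 astrocyte markers (5 tested, 1 called, Gja1) overlapped too, at 31.8 to 73.1 CPM in homozygous, 29.4 to 48.8 CPM in heterozygous and 6.76 to 83.8 CPM in wild-type libraries. These calls are for homozygous against wild-type libraries, where 0.0642% of all genes were called, so a count of 0 is near the background. These marker lists too were written with earlier results known. The part of these cells in the receptor values was not tested.

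None of the 9 tested members passed the test in any comparison. In homozygous against wild-type libraries 0 of 9 were called, against 0.0642% of all genes, and 1 of 9, Esr1, had an unadjusted p under 0.05, against 7.52% of all genes. In heterozygous against wild-type libraries 0 of 9 were called, against 0% of all genes, and 1 of 9, Pparg, had an unadjusted p under 0.05, against 5.82% of all genes. In homozygous against heterozygous libraries 0 of 9 were called, against 0.0214% of all genes, and 0 of 9 had an unadjusted p under 0.05, against 4.86%. DESeq2 and limma-voom also called 0 members in each of the 3 comparisons. The median log2 fold change of the 9 members in homozygous against wild-type libraries was 0.28, beside 0.02 over all genes, with 5 of 9 fitted above 0 against 51.1% of all genes. In heterozygous against wild-type libraries 7 of 9 were fitted above 0, against 50.7% of all genes, and in homozygous against heterozygous libraries 5 of 9, against 50.9%.

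Genotypes seldom separated completely. Of the 9 members, 1 (Esr1) was higher without overlap in homozygous than in wild-type libraries and 0 were lower, against 4.40% and 3.57% of all genes, or 7.97% in either direction. In heterozygous against wild-type libraries 0 were higher and 1 (Pparg) was lower without overlap, against 5.43% and 4.16% of all genes, or 9.60% in either direction. Between homozygous and heterozygous libraries 0 of 9 were separated in either direction, against 3.75% higher, 3.72% lower and 7.47% in all.

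**Figure D4:**
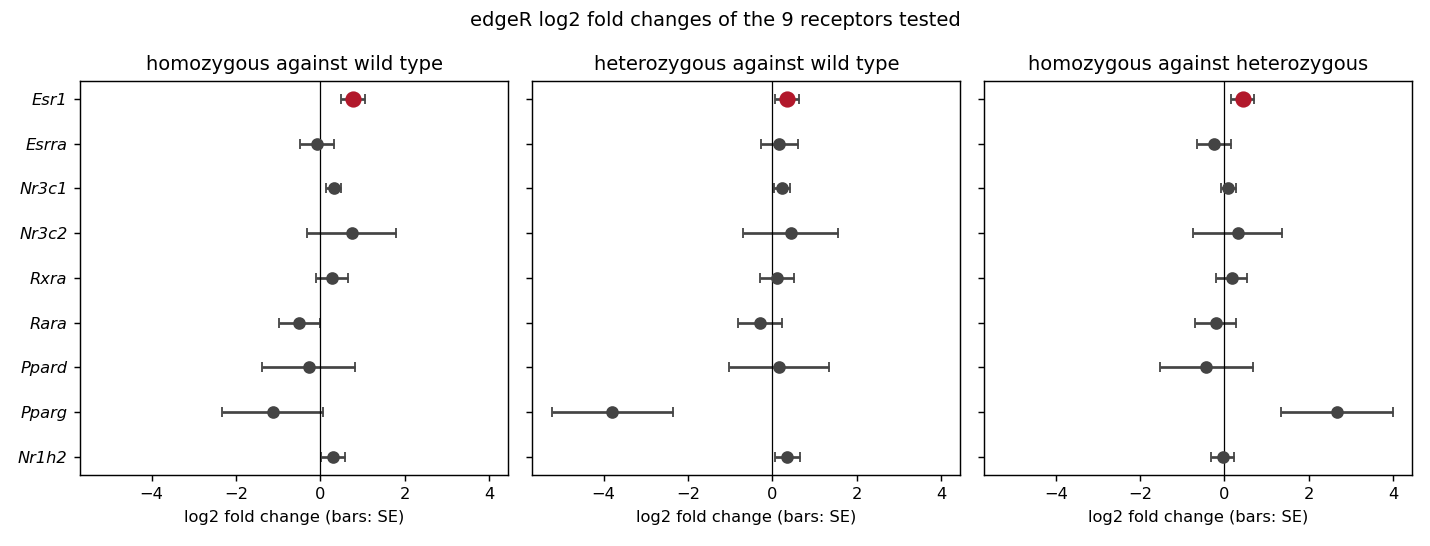
Log2 fold changes of the 9 receptors tested (x axis, 1 panel for each comparison, bars for SE), with Esr1 in red. Esr1 is at 0.78 in homozygous against wild-type libraries, and Pparg has the widest departures, at -3.79 in heterozygous against wild-type and 2.67 in homozygous against heterozygous libraries, none past the threshold.

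Among the steroid receptors, Nr3c1 was the most abundant and Nr3c2 the most uneven between mice. Nr3c1 had 356, 457, 295 and 269 CPM in homozygous libraries, 338, 330.0 and 301 CPM in heterozygous libraries and 244, 306 and 282 CPM in wild-type libraries. Homozygous and wild-type values overlapped, and the log2 fold change was 0.31 (SE 0.17, adjusted p = 0.761 by edgeR's quasi-likelihood test). Without homozygous replicate 2, the library with the highest level, the fitted value was 0.15.

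Nr3c2 had 31.9, 4.66, 11.9 and 14.3 CPM in homozygous libraries, 21.1, 16.3 and 0.518 CPM in heterozygous libraries and 19.2, 4.34 and 4.58 CPM in wild-type libraries. Each genotype thus held both high and low libraries, and heterozygous replicate 4 had 12 counts where homozygous replicate 1 had 877. The log2 fold change of 0.74 between homozygous and wild-type libraries had an SE of 1.06 (adjusted p = 0.999 by edgeR's quasi-likelihood test). It became 0.15 without homozygous replicate 1, 0.39 or 0.41 without wild-type replicate 2 or 3, and 1.82 without wild-type replicate 1. A small part of its exon bases, 3.815%, lies under a gene on the opposite strand, and the library kit does not mark the strand.

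Esrra, the member most related to Esr1, had 17.8, 14.1, 10.2 and 12.4 CPM in homozygous libraries, 20.5, 11.1 and 16.8 CPM in heterozygous libraries and 13.6, 12.6 and 16.8 CPM in wild-type libraries. The genotypes overlapped, with a log2 fold change of -0.08 (SE 0.40, adjusted p = 0.999 by edgeR's quasi-likelihood test) between homozygous and wild-type libraries. The fitted value took the other sign, at 0.048 and 0.057, without homozygous replicate 3 or wild-type replicate 3. Of its exon bases 3.74% are shared with Trmt112, on the opposite strand, and Mir6990.

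Rxra and Nr1h2 had at least 1446 and 1393 counts in every library and did not separate the genotypes. Rxra had 153, 53.8, 75.5 and 74.6 CPM in homozygous libraries, 82.3, 56.0 and 100.3 CPM in heterozygous libraries and 49.2, 89.8 and 82.1 CPM in wild-type libraries. Homozygous replicate 1 stood well above the rest, and without it the fitted log2 difference of 0.28 (SE 0.37) for homozygous against wild-type libraries became -0.11 instead. Nr1h2 had 90.5, 65.2, 80.1 and 46.7 CPM in homozygous libraries, 84.8, 51.2 and 82.3 CPM in heterozygous libraries and 58.9, 68.8 and 43.4 CPM in wild-type libraries. The fitted log2 fold change was 0.31 (SE 0.28), and edgeR's quasi-likelihood test gave both genes 0.999 as the adjusted p. The Nr1h2 value became 0.17 without homozygous replicate 1, 0.15 without wild-type replicate 3 and 0.47 without wild-type replicate 2.

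Rara and Ppard, which pair with Rxra, also overlapped between genotypes. Rara had 23.8, 26.6, 23.1 and 10.2 CPM in homozygous libraries, 20.0, 33.5 and 19.1 CPM in heterozygous libraries and 50.4, 24.6 and 13.8 CPM in wild-type libraries. The highest and a very low library were both wild type, and the fitted log2 difference of -0.50 (SE 0.48) for homozygous against wild-type libraries became 0.13 without wild-type replicate 1. Ppard had between 25 and 144 counts in every library, 0.681 to 3.02 CPM in homozygous, 1.60 to 4.52 CPM in heterozygous and 1.63 to 2.80 CPM in wild-type libraries. The fitted log2 fold change of -0.28 had an SE of 1.11 and became 0.0045 without homozygous replicate 2, so its sign was not settled.

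Pparg was the receptor with the largest spread across genotypes. It had 5.88, 12.6, 11.6 and 3.02 CPM in homozygous libraries, 3.33, 0.554 and 0 CPM in heterozygous libraries and 8.14, 26.3 and 19.8 CPM in wild-type libraries. Every heterozygous library lay below every wild-type library, as was so for 4.16% of all tested genes, and homozygous libraries overlapped both. The log2 fold change was -3.79 (SE 1.44) in heterozygous against wild-type libraries, for which edgeR's quasi-likelihood test gave a p of 0.0247, or 0.791 once adjusted. Homozygous against wild-type libraries gave -1.13 (SE 1.20) and homozygous against heterozygous libraries 2.67 (SE 1.33), and neither passed. The value for homozygous against wild-type libraries became -0.75 without wild-type replicate 2. Its mean was lowest in heterozygous libraries, and the number of alleles had a log2 slope of -0.51 per allele (SE 0.61, adjusted p = 0.998 by edgeR's quasi-likelihood test).

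Spread between mice of a genotype, as edgeR's biological coefficient of variation, was 18.6% for Nr3c1, 28.3% for Nr1h2, 29.9% for Esr1 and 35.0% for Rxra. It was 44.7% for Esrra, 47.7% for Rara, 92.3% for Ppard, 92.5% for Nr3c2 and 104% for Pparg. Against genes within 2-fold of its own mean CPM, Esr1 was among the steadier, since 19.6% of 4182 such genes varied less. For Esrra the share was 21.0% and for Ppard 10.7%. It was 44.5% for Nr1h2, 58.2% for Nr3c1, 58.9% for Rara, 67.5% for Pparg, 76.7% for Nr3c2 and 81.3% for Rxra. Across the 10 libraries the log2 CPM of Esr1 had a Pearson r between -0.41, with Ppard, and 0.15, with Nr1h2, with the other 8 tested members, which share these libraries and their scaling.

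By the rule of the highest Pearson r on log2 CPM among 8132 genes with at least 10 CPM, the 5 genes most like Esr1 over the 10 libraries were Kdelr1, Rcc2, Esyt2, Msmo1 and Mtss1. Kdelr1, a retrieval receptor of the endoplasmic reticulum, had an r of 0.909 and a Spearman rho of 0.927. Rcc2, a regulator of chromosome condensation, had 0.893 as its r, Esyt2, a membrane tether, 0.883, Msmo1, an enzyme of cholesterol synthesis, 0.882, and Mtss1, an actin-binding scaffold, 0.877. Since they were chosen for their likeness to Esr1 over these same libraries, their direction was fixed by that choice. Their log2 fold changes between homozygous and wild-type libraries ran from 0.37 for Rcc2 to 0.60 for Esyt2, and none passed (adjusted p from 0.321 to 0.797 by edgeR's quasi-likelihood test).

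Other members of the nuclear receptor family were measured at low to moderate levels. Of 39 other family members 27 had a count in any library and 15 were tested, of which 0 were called and 0 had an unadjusted p under 0.05 between homozygous and wild-type libraries, against 0.0642% and 7.52% of all genes. With so few calls over all genes, a count of 0 in this or the lists that follow is near the background. The list median was -0.16, beside 0.02 over all genes. The most abundant were Rxrb, a second retinoid X receptor, at 62.1 ± 9.27 CPM across homozygous mice (SD, n = 4) against 69.2 ± 19.8 CPM across wild-type mice (SD, n = 3), and Nr2f6, an orphan receptor, at 37.7 ± 9.43 and 26.8 ± 9.50 CPM in those genotypes. Nr2c2, another orphan receptor, had 24.9 ± 14.4 CPM across homozygous mice (SD, n = 4) against 37.2 ± 15.3 CPM across wild-type mice (SD, n = 3). Chosen after their values were seen, Esr2, the gene of oestrogen receptor beta, and Pgr, the progesterone receptor and a classical oestrogen target, had 0 counts in all 10 libraries.

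Coregulators and chaperones were abundant in these cells. Of 24 coregulators, the proteins that receptors recruit to DNA, 23 were tested and 0 called in homozygous against wild-type libraries, against 0.0642% of all genes, with 14 fitted above 0 and a median log2 fold change of 0.09. Ncoa4, known for ferritin turnover as well, was at 231 ± 25.6 CPM across homozygous mice (SD, n = 4) against 193 ± 16.2 CPM across wild-type mice (SD, n = 3), and Nrip1, a corepressor, at 201 ± 29.4 and 182 ± 13.5 CPM. Ncoa3, a coactivator of the p160 family, had a log2 fold change of -0.08 (SE 0.28). Med1, a Mediator subunit that binds receptors, chosen after its values were seen, was the one coregulator of 23 with an unadjusted p under 0.05, against 7.52% of all genes, at -1.03 (SE 0.40, adjusted p = 0.629 by edgeR's quasi-likelihood test). Of 15 chaperones of steroid receptors all were tested and 0 called, with 3 fitted above 0, against 51.1% of all genes, and a median of -0.18. Hspa8, a constitutive heat-shock protein, was fitted at -0.18 on the log2 scale (SE 0.41) and St13, a cochaperone, at 0.10 (SE 0.16). Hsp90ab1, the constitutive chaperone that holds unliganded steroid receptors, was at 892 ± 187 CPM across homozygous mice (SD, n = 4) against 935 ± 240 CPM across wild-type mice (SD, n = 3).

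Known targets were counted receptor by receptor in homozygous against wild-type libraries. Of 16 oestrogen targets 9 were tested and 0 called, 2 of them fitted above 0, with a median log2 fold change of -0.14. Igfbp4, a binding protein of insulin-like growth factors, was at 1336 ± 272 CPM across homozygous mice (SD, n = 4) against 930.1 ± 178 CPM across wild-type mice (SD, n = 3), a log2 fold change of 0.52 (SE 0.17, adjusted p = 0.566 by edgeR's quasi-likelihood test), while Ctsd, a lysosomal protease, had -0.14 (SE 0.17) and Xbp1, a factor of the unfolded protein response, had -0.08 (SE 0.25). Myc, a growth-related transcription factor chosen after its values were seen, had -0.75 (SE 0.27). Its unadjusted p of 0.0199 was adjusted to 0.616 in edgeR's quasi-likelihood fit. Igfbp4, in the other direction, had an unadjusted p of 0.0122 by the same test. Of the 9 tested oestrogen targets only these, 1 higher and 1 lower, had an unadjusted p under 0.05, against 7.52% of all genes. Of 19 glucocorticoid targets 16 were tested and 0 called (median -0.25). Cd163, the haemoglobin scavenger receptor that also serves as a macrophage marker, was at 1591 ± 182 CPM across homozygous mice (SD, n = 4) against 1130.0 ± 124 CPM across wild-type mice (SD, n = 3), with a log2 fold change of 0.49 (SE 0.13, adjusted p = 0.380 by edgeR's quasi-likelihood test). Cd163 was the one glucocorticoid target of 16 with an unadjusted p under 0.05 (0.00313 by the same test), against 7.52% of all genes. Tsc22d3, the glucocorticoid-induced leucine zipper, was fitted at -0.31 on the log2 scale (SE 0.37) and Cebpd, a C/EBP transcription factor, at 0.27 (SE 0.19).

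Lipid receptor targets included some of the most abundant genes of these cells. Of 16 LXR targets 15 were tested and 0 called, with 6 fitted above 0 and a median of -0.10. Apoe, the lipid carrier, had a log2 fold change of 0.20 (SE 0.13), Pltp, a phospholipid transfer protein, of -0.02 (SE 0.14) and Abca1, a cholesterol exporter, of 0.21 (SE 0.24). Abcg1, another cholesterol exporter, chosen after its values were seen, was the one LXR target of 15 with an unadjusted p under 0.05, against 7.52% of all genes, at -1.15 (SE 0.42, adjusted p = 0.624 by edgeR's quasi-likelihood test). Of 21 PPAR targets 16 were tested and 0 called, with 10 fitted above 0 and a median of 0.21. Ucp2, a mitochondrial carrier protein, had a log2 fold change of -0.17 (SE 0.13), with Cd36, a fatty acid receptor, at 0.22 (SE 0.31) and Plin2, a lipid droplet coat protein, at 0.08 (SE 0.25). Targets of oestrogen-related receptors (15 of 15 tested, median 0.02), genes of steroid metabolism (13 of 19 tested, median -0.03) and of the vitamin D pathway (4 of 11 tested, median 0.0044) had 0 called genes as well. Their most abundant genes ran from -0.03 for Uqcrc1 to 0.26 for Mdh2 among the oestrogen-related receptor targets (Sdha at 0.04) and from 0.01 for Soat1 to 0.19 for Hsd17b12 in steroid metabolism. In the vitamin D pathway Cd14 had -0.13 (SE 0.13), Cyp27a1 0.14 (SE 0.15) and Spp1 -1.88 (SE 1.38).

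The retinoid pathway (8 of 15 tested, 0 called, median 0.13) held the most extreme fitted values. Dhrs3, a retinal reductase, was the most abundant at 446 ± 22.6 CPM across homozygous mice (SD, n = 4) against 426 ± 38.0 CPM across wild-type mice (SD, n = 3). Retsat, a retinol saturase, was fitted at -0.01 on the log2 scale (SE 0.25) and Rdh10, a retinol dehydrogenase, at -1.69 (SE 1.21). Chosen after their values were seen, Crabp2, a retinoic acid carrier, and Aldh1a1, an enzyme that makes retinoic acid, averaged 2.89 ± 1.04 and 2.96 ± 2.34 CPM (SD, n = 4) over the homozygous libraries, but totalled 1 and 0 counts over the 3 wild-type libraries. Their fitted folds therefore have no firm size, and neither passed (adjusted p = 0.539 and 0.633 in edgeR's quasi-likelihood fit).

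None of the genes next to Esr1 on its chromosome passed the test. Of 6 neighbours 4 were tested and 0 called in homozygous against wild-type libraries, 2 of them fitted above 0, with a median of -0.07. Rmnd1, a mitochondrial translation protein, had a log2 fold change of -0.18 (SE 0.50), Zbtb2, a zinc finger factor, of 0.78 (SE 0.54) and Armt1 of -0.47 (SE 0.86).

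**Figure D5:**
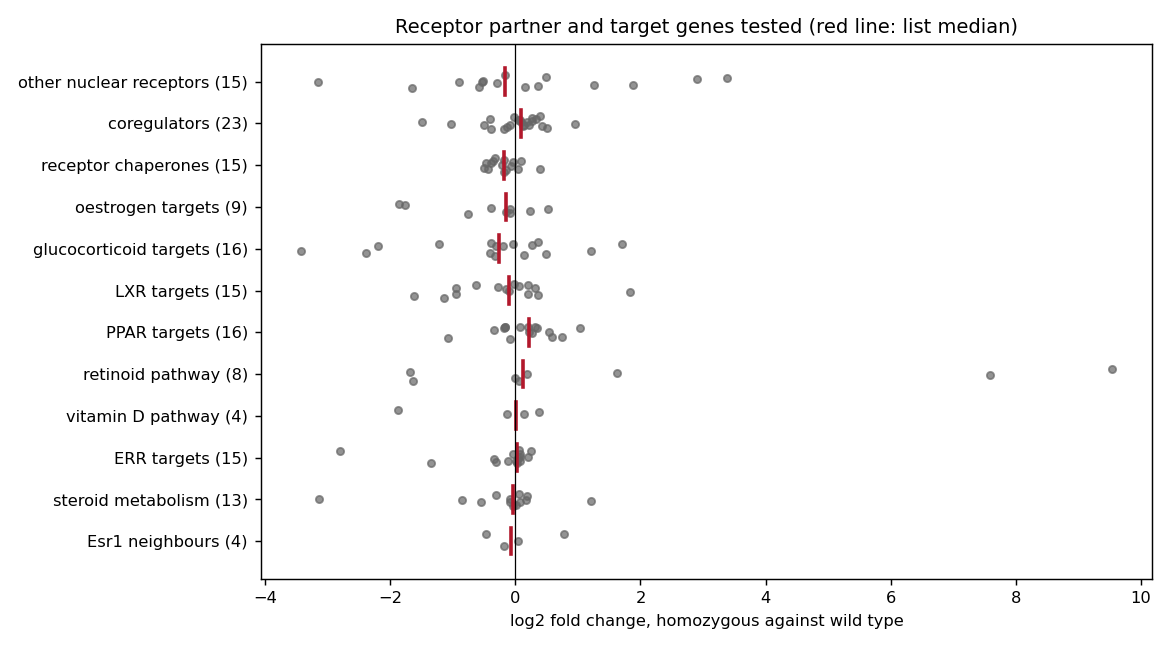
Log2 fold changes of homozygous against wild-type libraries for every tested gene of 12 lists (x axis; number tested in parentheses; red line, list median), with points spread up and down for legibility. Medians lie between -0.25 and 0.21, no point passed the test, and the 2 far points of the retinoid pathway are Crabp2 and Aldh1a1, with 1 and 0 counts in wild-type libraries.

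Start-site sequences, from RefSeq on GRCm38.p6, were searched for the core motif AGGTCA, which most of these receptors bind, on both strands in windows from 250 bases before to 50 bases after each start. The table held 16 windows for 9 of the 10 members, and 4 of them (25%) contained the motif, against 16.3% of all 32851 windows. These were windows of Pparg, Rara and Rxra, and neither of the windows of Esr1 held it. The palindromic oestrogen response element was in none of the 16 and in 0.07% of all windows. The window of Rxra with the motif once on each strand is shown as the example with most matches (chr2:27709042-27709341, plus strand), with the matches in capitals. A match is a run of letters and not a site that was measured.
Rxra window: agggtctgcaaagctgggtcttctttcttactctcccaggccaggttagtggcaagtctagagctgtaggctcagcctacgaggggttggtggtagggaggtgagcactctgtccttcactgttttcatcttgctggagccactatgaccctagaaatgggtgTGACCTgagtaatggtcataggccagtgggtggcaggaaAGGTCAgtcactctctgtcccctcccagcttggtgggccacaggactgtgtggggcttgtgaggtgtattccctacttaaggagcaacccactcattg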

How the data were processed

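The data deposited by the authors are raw read counts, with genes as rows and the 10 libraries as columns. Each library began as 500 pg of RNA, amplified by SMARTer chemistry and tagmented with Nextera XT, per the labels' protocols. The submitters' processing notes name STAR 2.7.8a, featureCounts 2.0.2 and bcl2fastq 2.20, without their settings. No source used here names the genome build, the annotation or whether strand was used. Of the symbols 93.5% matched a reference list of gene names. GENCODE vM21 (GRCm38) was used for lengths and coding sequences.

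Low genes were removed by filterByExpr, given the genotypes, a minimum count of 10 and a minimum total of 15. CPM and tests used trimmed-mean factors and edgeR 4.0.16 (R 4.3.3, quasi-likelihood, robust, genotype as the only term, all 10 libraries), with Benjamini-Hochberg adjustment over all genes and a threshold of 0.05. SEs were derived from each fitted log2 value and its F statistic. Alternatives used DESeq2 1.42.0, limma-voom 3.58.1, other filters and scalings, the title letter, the replicate number and each library left out. The procedure was tried on simulated counts. The members, lists, tests and named genes (the 3 most abundant tested members of each list, any called, and the 5 most like Esr1) were chosen with earlier results of these data known. Not every gene that the naming rule selects is reported here. No pair of same-genotype libraries agreed within counting noise (chi-square per gene 91.7 to 213). Labels name individual mice.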

Additional observations from a re-analysis of the deposited data

Results flagged for a closer look

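Esr1 in homozygous libraries stood out for a single library. Homozygous replicate 4 had 53.4 CPM of Esr1, while the other homozygous libraries lay between 40.8 and 41.6 CPM, so that the gap made up 0.931 of the whole range of the group. Chance flags about 1 in 20 groups in this way, and 10 groups were looked at. Without homozygous replicate 4 the log2 fold change of Esr1 between homozygous and wild-type libraries was 0.68, for which edgeR's quasi-likelihood test gave a p of 0.0529, or 0.804 once adjusted, and the 3 remaining homozygous libraries still lay above every wild-type library.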

How the results depend on the processing

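Under the 19 alternatives in which all members were tested, 0 were called in the 3 comparisons of genotypes. The receptor and marker scalings and the slope per allele were followed for Esr1 alone, and its fitted value stayed above 0 without passing in every alternative run. Between homozygous and wild-type libraries it ran from 0.44 with border macrophage markers as the scale to 0.92 without wild-type replicate 1. Libraries with the same replicate number showed no shared deviations (r -0.010 to 0.032 over 8 same-number pairs). Over 25 different-number pairs r was -0.050 to 0.052. This does not tell whether mice with the same number were bred or processed together. With the replicate block Esr1 had 0.63 in homozygous against wild-type and 0.091 in heterozygous against wild-type libraries. The count of all genes called in homozygous against wild-type libraries, 9, became 287 with DESeq2, 17 with the title letter, 1 with the replicate block, 2 with only these genotypes and 2 to 12 with a library left out. In heterozygous against wild-type libraries DESeq2 called 229 genes where edgeR called 0 (816 at an unadjusted p under 0.05). In homozygous against heterozygous libraries the count of 3 became 128 with DESeq2, 1 without robust estimation, with the title letter, with the replicate block or with only these genotypes, and 1 to 2 with a library left out. With a library left out, fitted values between homozygous and wild-type libraries changed sign for Esrra (-0.22 to 0.057), Rxra (-0.11 to 0.46), Rara (-0.84 to 0.13) and Ppard (-0.56 to 0.0045), and the cause was not tested. Scaling by summed receptor counts and by border macrophage markers was chosen after seeing the data. On the precision reached, the median SE over genes within 2-fold of the level of Esr1 was 0.37.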

Other observations

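Sample titles carry a letter, m or f, and Xist and Y-linked counts went with it in 10 of 10 libraries. Esr1 had 40.8 and 41.6 CPM in homozygous, 23.8 and 28.5 CPM in heterozygous and 30.4 and 23.3 CPM in wild-type libraries with the letter m. With the letter f it had 41.0 and 53.4 CPM in homozygous, 46.1 CPM in heterozygous and 23.5 CPM in wild-type libraries. Homozygous libraries lay above wild-type libraries within each letter, whereas the heterozygous library with f lay with the homozygous ones and those with m with the wild-type ones. The pattern in heterozygous libraries was not tested. For homozygous against wild-type libraries, where the wild-type arm with f is a single library assumed to vary like the others, a title letter by genotype interaction called 0 of 14023 genes in edgeR's quasi-likelihood test, with 859 at an unadjusted p under 0.05, and gave Esr1 an adjusted p of 0.981. Nr3c1 averaged 407 CPM in homozygous and 275 CPM in wild-type libraries with m (n = 2 each), and 282 CPM in homozygous (n = 2) and 282 CPM in wild-type (n = 1) libraries with f, with an interaction adjusted p of 0.826 by the same test.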
